A study of Mus musculus with 2 samples.

Results

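Ribosomal protein paralogs are genes that arose by duplication of a ribosomal protein gene and kept a coding sequence of their own. They were examined as 7 genes, Rpl39l, Rpl10l, Rpl22l1, Rpl3l, Rpl7l1, Rpl36al and Rps27l, taken by symbol from a table of 15127 protein-coding genes. Each was set beside the canonical ribosomal protein gene of the same number. The poly(A) RNA came from pSM44, female embryonic stem cells of an F1 mouse with a 129 and a castaneus parent, in which a tetracycline-inducible promoter drives Xist on the 129 X chromosome. Both libraries belonged to 1 group that was grown in serum-free 2i/LIF medium and given doxycycline at 2 μg/mL for 24 h. The deposited table had 1 column for that group, with 10017978 counts in total, which leaves 1 value per gene without a replicate error. The column names no library, and whether it holds one of them or both is not known. Untreated cells were not analysed here. A gene's place is given on GRCm38 from GENCODE M21.

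A mammalian ribosome carries a near-constant set of proteins, and most are made from a single gene whose product is used in every cell. A few of these genes have paralogs with narrower use. Rpl10l and Rpl39l are known from the testis, where copies on autosomes serve while the X chromosome is silenced during male meiosis, and Rpl3l is known from heart and skeletal muscle. Rpl22l1 is the partner of Rpl22, whose protein represses it in blood cells, and Rps27l is a target of the tumour suppressor p53. Rpl36al is an autosomal copy of the X-linked Rpl36a. Rpl7l1 resembles a yeast factor that helps to assemble the large subunit.

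In these stem cells 6 of the 7 paralogs were at CPM 1 or more (CPM is the count of a gene scaled by the table total), a level that took 11 counts. The same minimum was met by 54.4% of annotated protein-coding genes and by 80.1% of the genes in the table. Counts ran from 7430 for Rps27l to 6 for Rpl36al. In 6 of the 7 pairs the canonical gene had more counts, and the exception was Rps27l, which had more than Rps27. The 7 paralogs held 12233 counts, or 0.122% of all counts and 11.7% of the counts of the 7 pairs, and Rps27l alone gave 60.7% of the paralogs' counts. By count Rps27l and Rpl7l1 stood at percentiles 99.1 and 95.6 of the table, and Rpl3l at 28.8. Rpl36al lies almost wholly under the span of another gene, and its count was not taken as a measure of its level. A single cell type cannot show restriction to a tissue. The cells carried the markers of their label, with 10 of 10 listed embryonic stem cell genes at CPM 232 or more, led by Dppa5a and Nanog.

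**Figure D1:**
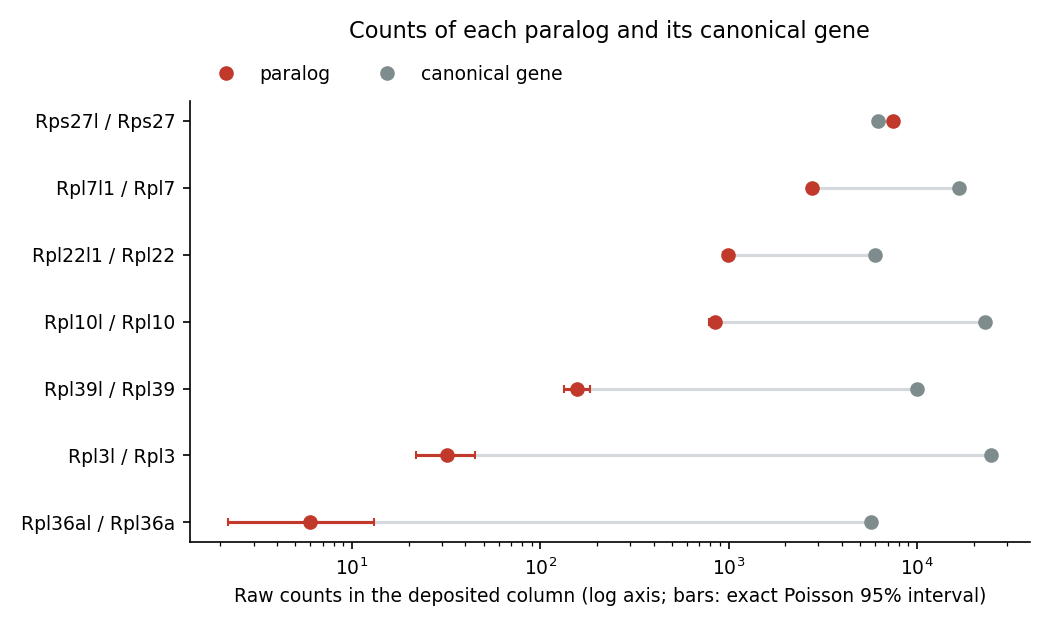
Raw counts of each paralog (red) and of its canonical gene (grey) on a log axis, 1 row per pair, with exact Poisson 95% intervals that cover counting error only. Rps27l is the only paralog to the right of its partner, and the distance between the points is widest for Rpl3l and Rpl36al.

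Messenger RNAs of ribosomal proteins are known for a terminal oligopyrimidine tract, an unbroken run of C and T at the 5′ end that ties their translation to mTOR signalling. RefSeq promoter windows (GRCm38.p6; 250 bases before and 50 bases from the RefSeq start) were found for 7 of 7 paralogs and 5 of 7 partners, all except Rpl3 and Rpl7. The 50 bases on each side of the start are shown for 4 pairs, the 3 whose canonical gene is X-linked and the one in which the paralog had more counts. They are written 5′ to 3′ on the strand of the gene, with the longest pyrimidine run in capitals.
Rpl10l (chr12:66284352-66284451, minus strand): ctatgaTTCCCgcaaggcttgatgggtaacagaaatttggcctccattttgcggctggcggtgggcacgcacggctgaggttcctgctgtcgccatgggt
Rpl10 (chrX:74270766-74270865, plus strand): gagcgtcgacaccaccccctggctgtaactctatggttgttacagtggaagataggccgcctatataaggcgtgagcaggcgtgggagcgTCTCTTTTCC
Rpl39l (chr16:10170178-10170277, plus strand): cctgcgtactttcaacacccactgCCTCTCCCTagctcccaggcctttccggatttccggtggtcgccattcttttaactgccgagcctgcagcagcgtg
Rpl39 (chrX:37085173-37085272, minus strand): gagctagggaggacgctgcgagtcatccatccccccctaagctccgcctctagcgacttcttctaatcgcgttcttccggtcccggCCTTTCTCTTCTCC
Rpl36al (chr12:69184018-69184117, minus strand): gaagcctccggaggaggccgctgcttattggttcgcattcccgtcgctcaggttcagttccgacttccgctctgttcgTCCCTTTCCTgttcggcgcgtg
Rpl36a (chrX:134585604-134585703, plus strand): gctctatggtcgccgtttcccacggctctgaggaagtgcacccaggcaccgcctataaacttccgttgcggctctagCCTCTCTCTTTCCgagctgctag
Rps27l (chr9:66946036-66946135, plus strand): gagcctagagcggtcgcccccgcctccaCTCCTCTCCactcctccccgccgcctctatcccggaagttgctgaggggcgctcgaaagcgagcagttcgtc
Rps27 (chr3:90213599-90213698, minus strand): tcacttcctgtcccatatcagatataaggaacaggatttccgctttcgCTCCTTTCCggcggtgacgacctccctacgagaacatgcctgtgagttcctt

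All 5 partners with a window held a run of at least 8 pyrimidines within 50 bases of the start, as did 5 of 7 paralogs. Over all 20118 promoter windows of protein-coding genes the share was 34.9%, and over 58 canonical ribosomal protein genes with a window it was 81.0%, or 47 genes. These shares were not tested against each other. They count runs on both sides of the RefSeq start, and a run upstream of it is not part of the RNA annotated from there. The longest runs of Rpl10l, Rpl39l, Rpl7l1 and Rps27l began at bases -44, -26, -32 and -22 and ended before that start. Rpl10l had the shortest run, 5 bases, against at least 10 bases in Rpl10, where it began at base 41 counted from the RefSeq start. In Rpl39 the run was at least 14 bases and in Rpl39l 9. The runs of Rpl10 and Rpl39 reached the end of the searched stretch, so their full lengths were not measured. The run was 13 bases in Rpl36a and 10 in Rpl36al. Rps27 and Rps27l had 9 each, from base -2 in Rps27 and from base -22 in Rps27l. Rpl22l1 carried TTCTCTTCCC from base 2 counted from the RefSeq start, although its GENCODE gene begins further upstream, and Rpl22 had its 14-base run upstream of the RefSeq start. Rpl3l had a run of 9 and Rpl7l1 one of 7.

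The CpG content of the same windows was lowest in Rpl3l among the paralogs. Its ratio of observed to expected CpG was 0.0892, lower than in most genes, since 8.71% of promoter windows were below it. The other 6 paralogs lay between 0.643 (Rpl10l) and 1.16 (Rpl22l1), and the median was 0.588 over all windows and 0.906 over the canonical genes. Rpl22l1 and Rpl36al had ratios above 98.8% and 98.5% of windows. The letters CCGGAA, searched on both strands, were in 3 of 7 paralogs (Rpl39l, Rpl7l1 and Rps27l), in 29 of 58 canonical genes and in 19.1% of all windows. TATAAA was found in Rpl22l1 only among the paralogs, and in the partners Rpl39 and Rpl36a. It was in 5 of 58 canonical genes and 12.2% of all windows. AAGATGGC was found in Rpl7l1 only among the paralogs, and in Rps27 only among the partners with a window. It was in 5 of 58 canonical genes and 3.10% of all windows. These matches describe letters and not bound factors.

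Whether reads of a paralog can be told from those of its partner decides what a pair of counts means, so the sequences were compared. No window of 50 bases was shared between any paralog and its partner. Within the coding sequences, identity ran from 62.6% of aligned bases for Rpl7l1 to 87.9% for Rpl36al, and the longest identical run was 38 bases, between Rpl39l and Rpl39. Rpl10l and Rpl10 both encode 214 codons and were 84.8% identical, with no identical run beyond 23 bases. Rpl3l was 74.4% identical to Rpl3, Rps27l 76.1% to Rps27 and Rpl22l1 70.2% to Rpl22.

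In 6 of the 7 pairs the canonical gene had the smaller share of windows to itself, and the genes that held its windows were mostly processed pseudogenes. For Rpl10, 14.6% of 50-base windows of the longest coding transcript were in no other gene, and for Rpl3 and Rpl36a it was 14.4% and 14.5%. For Rpl10l, Rpl3l and Rpl39l the shares were 92.4%, 100% and 100%, and for Rpl36al 81.9% outside its own locus. Rpl22l1 was the exception, with 42.7% against 94.8% for Rpl22, because 3 pseudogenes held 288 of its 503 windows. Rpl7l1 shared windows with the most genes, 520, of which 376 were protein-coding, but these windows were 235 of its 2557, and 90.8% were its own. The counts of the canonical genes and of Rpl22l1 are uncertain for this reason, as the handling of reads that match several places was not stated in the labels. Rpl10-ps3, a copy of Rpl10 that the table lists as protein-coding, shared 688 windows with Rpl10 and had 456 counts of its own.

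**Figure D2:**
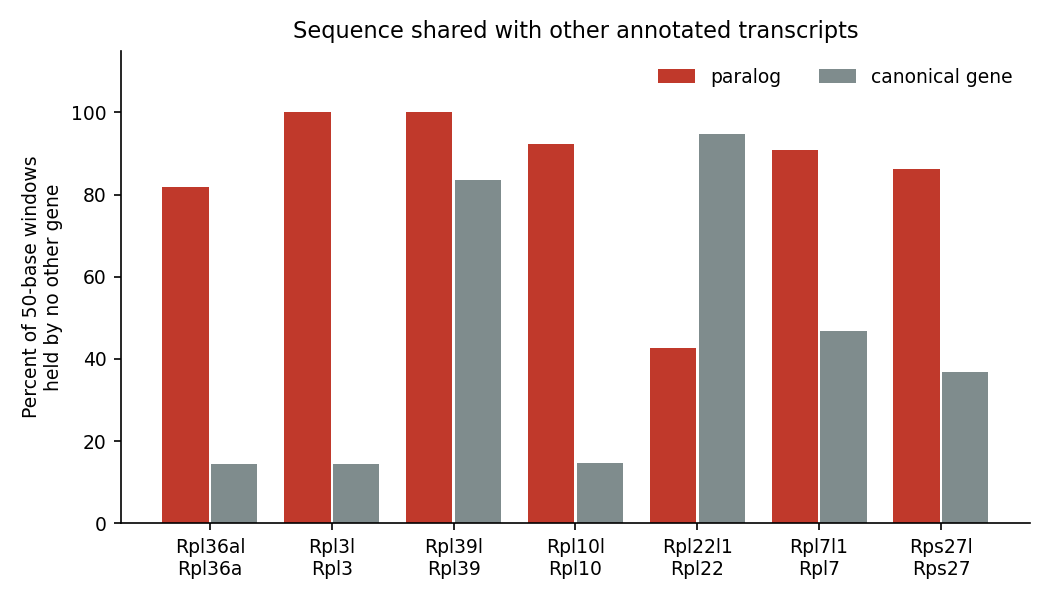
Percent of the 50-base windows of each gene's longest coding transcript that no other annotated gene outside the locus holds, for each paralog (red) and canonical gene (grey). The paralog bar is the taller one in 6 of 7 pairs, and Rpl22l1 with 42.7% is the exception.

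Among the small-subunit members, Rps27l had 7430 counts, or 742 CPM (exact Poisson 95% interval 725 to 759), and stood at percentile 99.1 of the table. The gene lies on chromosome 9, from 66946086 to 66949516, and its longest coding transcript has 5 exons. Rps27, on chromosome 3 from 90212522 to 90213651, had 6238 counts, and the intervals of the 2 counts (7262 to 7601, and 6084 to 6395) did not overlap. Rps27l thus made up 54.4% of the pair (exact Clopper-Pearson 95% interval 53.5 to 55.2, counting error only).

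The order of this pair depended on the length used. Per kilobase of exon, the union of all annotated exons, Rps27l stood at 9105 counts and Rps27 at 5981, a share of 60.4%. Per kilobase of the longest coding transcript the order turned, with 12922 against 13620 counts and a share of 48.7%. Per 50-base window held by no other gene, Rps27l had 28.4% of the pair, since 36.9% of Rps27's windows and 86.3% of Rps27l's were free of copies. This scale divides all counts of a gene by its unshared windows. It gives a level only if no count came from shared windows, which is not known. Which of the 2 genes stood higher therefore cannot be given. Rps27rt, a copy that holds 258 of the 409 windows of Rps27 and lies inside another gene, was not listed in the table.

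By level per kilobase of exon, Rps27l stood well inside the range of the canonical set, Rpl10l, Rpl7l1 and Rpl22l1 near its lower end, and Rpl39l and Rpl3l below all canonical genes but those mostly covered by another gene. Rps27l exceeded 51 of the 74 listed canonical ribosomal protein genes on that scale, and 35 of 74 per kilobase of the longest coding transcript. Rpl10l exceeded 6 of the 74 canonical genes, Rpl7l1 5, Rpl22l1 4 and Rpl39l 2 per kilobase of exon. The 2 below Rpl39l were Rps10 and Rpl24, each with more than 80% of its exonic bases under another gene. Among the 71 canonical genes with less overlap the lowest was Rpl21 at 402 counts per kilobase, above Rpl39l at 189 and Rpl3l at 19.5. Leaving out Rpl36al, the paralogs followed the order Rps27l, Rpl10l, Rpl7l1, Rpl22l1, Rpl39l and Rpl3l. The intervals of Rpl10l (771 to 884) and Rpl7l1 (763 to 823) overlapped, so these neighbours did not differ beyond counting error on this scale. The intervals of the other neighbours in that order did not overlap. Per kilobase of the longest coding transcript, Rpl22l1 moved to the place after Rps27l, with 1799 counts against 499 per kilobase of exon, since retained introns make its annotated exons cover the whole gene. On that scale Rpl7l1 (1063, interval 1024 to 1103) also stood above Rpl10l (826, interval 771 to 884), and these intervals did not overlap.

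**Figure D3:**
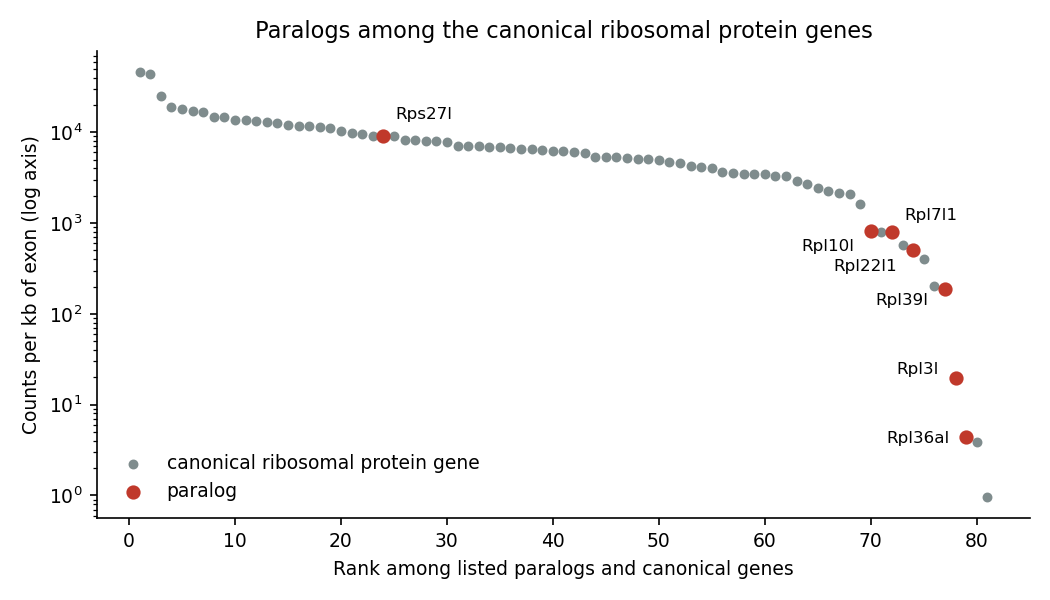
Counts per kilobase of exon (log axis) against rank for the 74 listed canonical ribosomal protein genes (grey) and the 7 paralogs (red). Rps27l sits well within the canonical range, Rpl10l, Rpl7l1 and Rpl22l1 sit near its lower end, and the grey points below Rpl39l are Rps10 and Rpl24, which are mostly covered by other genes.

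Rps27l is known as a p53 target, and other p53 targets were present in the same cells. All 16 genes of a p53 list reached CPM 1, a minimum met by 80.1% of the genes in the table. The median of the 16 was 97.6 CPM against 18.3 for all listed genes. Cdkn1a, the cell cycle inhibitor, had 4501 counts, Ccng1 had 3026 and Mdm2, which marks p53 for degradation, had 2097, while Perp was lowest with 139. Rps27l exceeded all 16 of them in counts and per kilobase of exon.

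Rpl7l1 had 2770 counts, or 277 CPM (266 to 287), at percentile 95.6. It lies on chromosome 17 from 46773907 to 46782672, with 7 exons in its longest coding transcript. Rpl7 had 16721 counts, so Rpl7l1 made up 14.2% of the pair (13.7 to 14.7). Per kilobase of exon the levels were 793 and 6223, a 7.85-fold difference, and per kilobase of the longest coding transcript it was 13.5-fold. Per 50-base window held by no other gene Rpl7l1 was 3.58% of the pair. The whole gene lies under Gm26904, a long non-coding gene on the other strand. Of 313 coding genes covered to at least 90% in that way and by no coding gene, 64 (20.4%) were listed, against 62.0% of genes with no overlap. Whether the overlap lowered the Rpl7l1 count was not tested, so its levels and shares describe only the reads counted for it.

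By the reads counted for it, Rpl7l1 stood high among the factors that build the large subunit. Each of 30 such assembly factors reached CPM 1, a minimum met by 80.1% of the genes in the table. The median of the 30 was 129 CPM, against 18.3 for all listed genes. The highest were Rsl1d1 with 4965 counts, the nucleostemin gene Gnl3 with 3053 and Brix1 with 2022, and the lowest was Nle1 with 304. Rpl7l1 exceeded 28 of the 30 in counts and 29 of the 30 per kilobase of exon. Rsl1d1 and Gnl3 were above it in counts, and Rsl1d1 alone per kilobase. On the exon scale Rpl7l1 was 7.85-fold below Rpl7, but it was above the median of the assembly factors, which was 350 counts per kilobase.

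Rpl22l1 had 993 counts, or 99.1 CPM (93.1 to 105), at percentile 84.3. The gene lies on chromosome 3 from 28805436 to 28807424. Rpl22, on chromosome 4 from 152325742 to 152334071, had 6009 counts, and Rpl22l1 made up 14.2% of the pair (13.4 to 15.0). The same share of raw counts as for Rpl7l1 hid different levels per length. Per kilobase of exon Rpl22 was 4.13-fold higher, and per kilobase of the longest coding transcript, 552 bases for Rpl22l1 and 2051 for Rpl22, it was 1.63-fold higher. Per 50-base window held by no other gene the order turned, and Rpl22l1 had 59.3% of the pair, if no count came from shared windows. Of the 6 pairs in which the canonical gene had more counts, this was the only one in which any of these scales reversed the order. The antisense gene Gm33051 covers 11.1% of its exonic bases, so that without a stated strand setting its reads and those of Rpl22l1 cannot be told apart there.

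**Figure D4:**
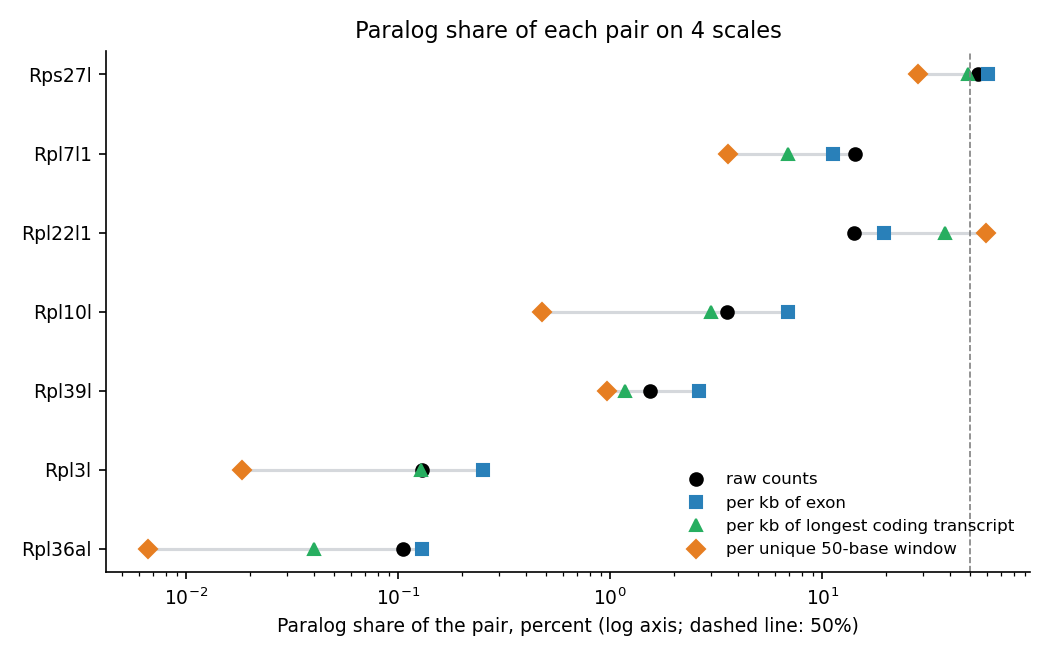
Share of each pair that belongs to the paralog, in percent on a log axis, by raw counts, per kilobase of exon, per kilobase of the longest coding transcript and per unique 50-base window. Rps27l and Rpl22l1 have scales on both sides of the dashed line at 50%, and the other 5 paralogs stay below it on all 4.

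Rpl10l had 845 counts, or 84.3 CPM (78.8 to 90.2), at percentile 81.4. It is a single-exon gene on chromosome 12 from 66283379 to 66284401 with no annotated overlap. Its partner Rpl10, on chromosome X from 74270812 to 74273135 with 6 exons in its longest coding transcript, had 23028 counts, 27.3-fold more (25.4 to 29.2). Rpl10l was 3.54% of the pair (3.31 to 3.78), and 6.86% per kilobase of exon. It was 2.98% per kilobase of the longest coding transcript and 0.479% per 50-base window held by no other gene, a 208-fold difference. The window value holds only if no count came from shared windows, which is not known. None of the 50-base windows of Rpl10l was in Rpl10, and the 74 of its 974 windows that another gene held were those of the pseudogene Gm14460.

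Rpl39l had 157 counts, or 15.7 CPM (13.3 to 18.3), near the middle of the table at percentile 47.6. It lies on chromosome 16 from 10170226 to 10174911 with 3 exons and no overlap. X-linked Rpl39 (37082520 to 37085402) had 10017 counts, 63.8-fold more (54.5 to 75.2), so Rpl39l was 1.54% of the pair. Per kilobase of exon the levels were 189 and 6985, and Rpl39l was 2.63% of the pair. The share was 1.18% per kilobase of the longest coding transcript and 0.965% per 50-base window held by no other gene.

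Both testis paralogs had more counts than every gene of a testis and spermatid list. Of 16 such genes 3 were at CPM 1 or more, namely Sycp1 of the synaptonemal complex with 116 counts, Zpbp with 57 and Piwil1 with 32. That minimum was met by 54.4% of annotated protein-coding genes. The protamine genes Prm1 and Prm2, which package sperm DNA, had 1 and 2 counts. Tnp1, Tnp2, Akap4, Sycp3 and Hspa1l were not listed, and Sycp3 lies wholly inside another coding gene. Other annotated genes also cover 100% of the exonic bases of Tnp1 and 93.5% of those of Hspa1l, so a missing count there need not mean absence. The median over the 11 listed genes was 0.299 CPM. In bulk RNA a low level in all cells and a higher level in few cells cannot be told apart.

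Copies of other X-linked genes used in the testis had a wide range. Of 7 such autosomal copies, Pgk2, Cetn1, Cstf2t and Utp14b were not listed, while the X-linked genes Pgk1, Cetn2, Cstf2 and Utp14a had 5940, 528, 1366 and 1147 counts. Cstf2t and Utp14b lie inside other coding genes. Slc25a31 had 21 counts and Slc25a5, which encodes an adenine nucleotide carrier, had 15205. Pdha2 had 48 counts against 1612 for Pdha1, or 2.89% of that pair (2.14 to 3.82). Rbmxl2 was unlike these, with 1691 counts against 39 for Rbmx. Windows shared with other genes were not searched for these 7 pairs, so whether their reads were counted at the right gene is not known. The 3 X-linked partners here, Rpl10, Rpl36a and Rpl39, were measured on both X chromosomes together.

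Rpl3l had 32 counts, or 3.19 CPM (2.18 to 4.51), at percentile 28.8. It lies on chromosome 17 from 24727820 to 24736143, has 10 exons and no overlap, and all of its 50-base windows were its own. Rpl3, on chromosome 15 from 80077791 to 80091868, had 24623 counts, 769-fold more (545 to 1125). The difference was 398-fold per kilobase of exon, 783-fold per kilobase of the longest coding transcript and 5427-fold per 50-base window held by no other gene. The window value holds only if no count of Rpl3 came from shared windows, which is not known. The exact Poisson 95% interval of the Rpl3l count ran from 21.9 to 45.2 counts. Of 18 striated muscle genes 4 were at CPM 1 or more, against 54.4% of annotated protein-coding genes. Mylpf, a fast-muscle myosin light chain gene, had 1242 counts, Tnnt2 had 67, Tnni3 48 and Ttn 32. Myh7, Myh1, Myh2, Myh4, Acta1, Actc1, Myl1 and Myod1 were not listed, and Acta1 lies inside another coding gene. Other annotated genes also cover 100% of the exonic bases of Actc1, 75.3% of those of Myh7 and 55.0% of those of Myh1. Rpl3l exceeded 14 of the 18 in counts, but 8 of those 14 were the genes not listed, which were set to 0.

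**Figure D5:**
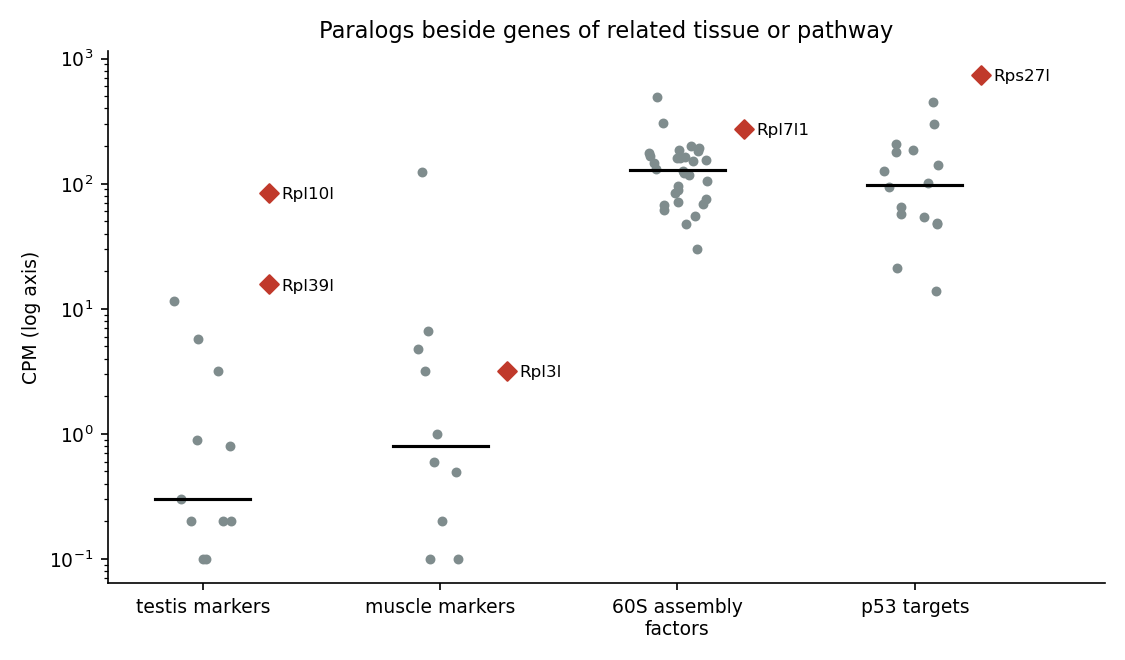
CPM (log axis) of the listed genes of 4 lists (grey points, with the median over listed genes as a black line; genes not listed are not drawn) and of the paralogs named beside them (red diamonds). Rps27l, Rpl10l and Rpl39l lie above every gene of the list beside them, and Rpl7l1 lies above most.

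Rpl36al had 6 counts, or 0.599 CPM (0.220 to 1.30), the lowest of the 7 and the only one under CPM 1. Rpl36a, on chromosome X from 134585654 to 134588062, had 5681 counts, 947-fold more (435 to 2581). This count may not measure the gene in the way the others do. Rpl36al lies on chromosome 12 from 69182731 to 69184083. Of its exonic bases, 92.4% lie under Gm49383, a coding gene on the same strand that spans 69182834 to 69197104. That span includes introns, and transcripts of Gm49383 held 287 of the 1227 windows of 50 bases of Rpl36al. How reads in the other windows were counted is not known. Gm49383 was itself in the authors' table, with 1 count, and Mgat2, which lies within Gm49383 on the other strand, was not listed. Of 557 coding genes covered to at least 90% by coding genes on the other strand, 8 (1.44%) were listed. Among 663 coding genes covered to at least 90% by same-strand coding genes, 11.5% were listed, against 62.0% of coding genes with no overlapping gene.

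Overlap and count went together among the canonical ribosomal protein genes as well. Of 77 genes, 6 had at least 80% of their exonic bases under another annotated gene: Rps10, Rpl13, Rpl13a, Rpl24, Rpl35 and Rpl35a. Their highest value was 43.1 CPM, for Rpl13a, and Rpl13, Rpl35 and Rpl35a were not listed. The lowest of the other 71 was at 90.5 CPM, and their median was 1414. The 80% limit was set after the values were seen. None of the 7 canonical partners was among the 6. Of the paralogs, Rpl7l1 with 100% and Rpl36al with 92.4% were past the same limit. If all 6 counts came from the 103 exonic bases of Rpl36al outside the span of Gm49383, the level would be 58.3 per kilobase. Over all its exons it was 4.43 per kilobase. The level of Rpl36al in these cells therefore cannot be given from this table.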

How the data were processed

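Poly(A) RNA of 2 libraries in 1 group was sequenced. Per the submitters' processing notes, the tools were featureCounts (Subread 1.6.4), HISAT2, SAMtools and Trimmomatic 0.38, on the GRCm38.p6 build. The annotation release, strand setting and treatment of multi-mapped reads were not given in the sources used here. One column of raw counts was deposited by the authors. It names no library, so whether it holds one or both is not known. It holds protein-coding genes with at least 1 count and runs from 1 to 117610. Of 15127 symbols, 14896 matched a coding gene of GENCODE M21, which supplied positions, exons and transcripts.

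Counts were scaled to CPM by the table total, and divided by the union of annotated exons or by the longest coding transcript. The window scale divided all counts of a gene by its windows held by no other gene. It assumes that no count came from shared windows, which could not be checked. Intervals are exact (Poisson, or Clopper-Pearson for shares), at 95%, for counting error alone, as PCR reads with no molecular identifier can stem from 1 molecule. No p-value was computed, because there was 1 value per gene. Windows of 50 and 90 bases were searched on both strands of all M21 transcripts, and coding sequences were aligned globally. The functions were tested on simulated counts and sequences. The genes and lists were chosen with earlier results of these data known. Named genes were the 7 members, their partners, the 3 highest and the lowest detected gene of each list, and unlisted genes. A few further genes, such as the protamines and the overlapped canonical genes, were named after their values were seen, and of the stem cell list 2 are named. The canonical list leaves out some genes that are not reported here. Alternatives were other detection minimums, lengths, totals and unlisted genes at 0. Scaling between libraries, and leaving out a library, could not be run. The software was Python 3.11.15 with Biopython 1.88, matplotlib 3.10.9, pandas 2.3.3, scipy 1.17.1 and numpy 2.4.6.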

Additional observations from a re-analysis of the deposited data

How the results depend on the processing

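Between 5 and 7 paralogs were detected under other minimums, and 6 of 7 or 7 of 7 lay below their partners under other scales. Pair shares moved beyond counting error as follows. Per kilobase of exon they were 2.63% for Rpl39l, 6.86% for Rpl10l, 19.5% for Rpl22l1, 0.251% for Rpl3l, 11.3% for Rpl7l1 and 60.4% for Rps27l. Per kilobase of the longest coding transcript they were 1.18% for Rpl39l, 2.98% for Rpl10l, 38.04% for Rpl22l1 and 6.88% for Rpl7l1, and Rps27l reversed to 48.7%. Window scales were added after seeing the data. Per unique 50-base window the shares were 0.965% for Rpl39l, 0.479% for Rpl10l, 0.0184% for Rpl3l, 3.58% for Rpl7l1 and 0.00662% for Rpl36al, and the order reversed for Rpl22l1 at 59.3% and Rps27l at 28.4%. Per unique 90-base window they were 1.09%, 0.461%, 0.0240%, 4.63% and 0.00637% for the same 5 genes, with Rpl22l1 at 55.6% and Rps27l at 27.3%. The divisors alone make these differences. Without the canonical ribosomal protein genes in the total, CPM was 93.5 for Rpl10l, 110 for Rpl22l1, 306 for Rpl7l1 and 822 for Rps27l. Without the 20 highest genes it was 91.4, 107, 299 and 803. With unlisted members at 0, median CPM was 1279 for canonical ribosomal proteins, 0.200 for testis genes, 0.0998 for muscle genes, 0 for testis copies of X-linked genes and 2.40 for all annotated genes. Adding Rps27rt changed nothing, since it was not listed. The search for copies in the genome was not run, because only transcripts were used here. No paired analysis was possible because the table has 1 column of values, which names no library. Rpl36al and Rpl3l had the fewest counts and the widest intervals.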
